A study of Arabidopsis thaliana with 6 samples.

Results

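EMB2786 (AT3G17300, chromosome 3) was the 1 gene with an EMB symbol that the gene tables used here tie to a probe set of its own. EMB symbols, the letters EMB followed by a number, belong to Arabidopsis thaliana genes named in screens for mutants whose embryos stop developing in the seed. Members were chosen by that symbol among probe sets paired with exactly 1 gene. The RefSeq gene table used here held 160 genes with such a symbol, and 1 of them had a probe set paired with 1 gene, out of 13356 genes measured that way. The other 159 were not analysed here, and 0 of them stood among the probe sets paired with several genes. The platform's gene table used here lists no gene for 8730 of the 22746 probe sets compared, so this count describes the table and not what the arrays can detect. The values below therefore describe EMB2786 and not EMB genes as a group, and a comparison of organelle with cytosol functions within the group could not be made.

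Rosette leaves came from atrap mutant plants and from wild type (WT) plants, 3 weeks old, with 3 Affymetrix arrays per genotype that the labels call biological replicates. Both genotypes were kept untreated at 23 °C in cycles of 12 h light and 12 h dark. The labels give neither the atrap allele, its locus nor the accession of the WT, and do not say how many plants went into a sample. Values are log2 expression levels per probe set, and 22746 probe sets were compared after 64 manufacturer's controls were set aside.

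An embryo-defective gene is one whose loss arrests the embryo, so that homozygous mutant plants are not recovered as normal seedlings. Many such genes act in basic cell functions, among them translation and RNA processing inside plastids and mitochondria, splicing in the nucleus and protein synthesis in the cytosol. Many are also expressed after germination, so that their transcripts can be followed in leaves. The gene table gives no product for EMB2786, so no compartment was assigned to it. In the same table the name ATRAP leads to RAP (AT2G31890), a plastid protein known for its part in the maturation of plastid ribosomal RNA.

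The EMB2786 transcript read 7.84, 7.64 and 7.85 in atrap replicates 1 to 3, against 8.03, 8.14 and 8.10 in WT replicates 1 to 3 (log2 levels). All 3 mutant arrays lay below all 3 WT arrays, and 0.18 log2 units separated the highest mutant array from the lowest WT array. The means were 7.78 ± 0.12 in atrap and 8.09 ± 0.06 in WT (log2, SD, n = 3 each). This gave a log2 fold change of -0.32 (standard error 0.09) with a 95% interval from -0.52 to -0.11. On a linear scale the mutant level was 80.3% of the WT level, with an interval from 69.8% to 92.5%. The order within the mutant was set by replicate 2, which lay lowest, while replicates 1 and 3 differed by less than the spread of the WT arrays. In leaf RNA, fewer cells that express the gene and less transcript per cell cannot be told apart.

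The difference did not pass the test across all probe sets (limma, adjusted p = 0.0546, threshold 0.05). Thus 0 of 1 EMB probe sets was called by limma in either direction. Over all probe sets tested, 6.41% were called lower, 6.7% higher and 13.1% in either direction. The unadjusted p of EMB2786 in the limma fit across all probe sets was 0.00773, so that it was under 0.05 for 1 of 1, as it was for 29.6% of all probe sets. Of all probe sets, 3219 had a smaller p than EMB2786, and the largest unadjusted p that still passed was 0.00655. An exact permutation test of the 6 values gave p = 0.1, two-sided, the smallest that 3 against 3 arrays allow. The call changed with 2 alternatives: the adjusted p was 0.0447 when only probe sets above log2 6 on average were tested and 0.0304 with array weights (limma), where 23.3% and 23.4% of the probe sets tested were called in either direction, and it ran from 0.0304 to 0.165 over all alternatives.

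**Figure D1:**
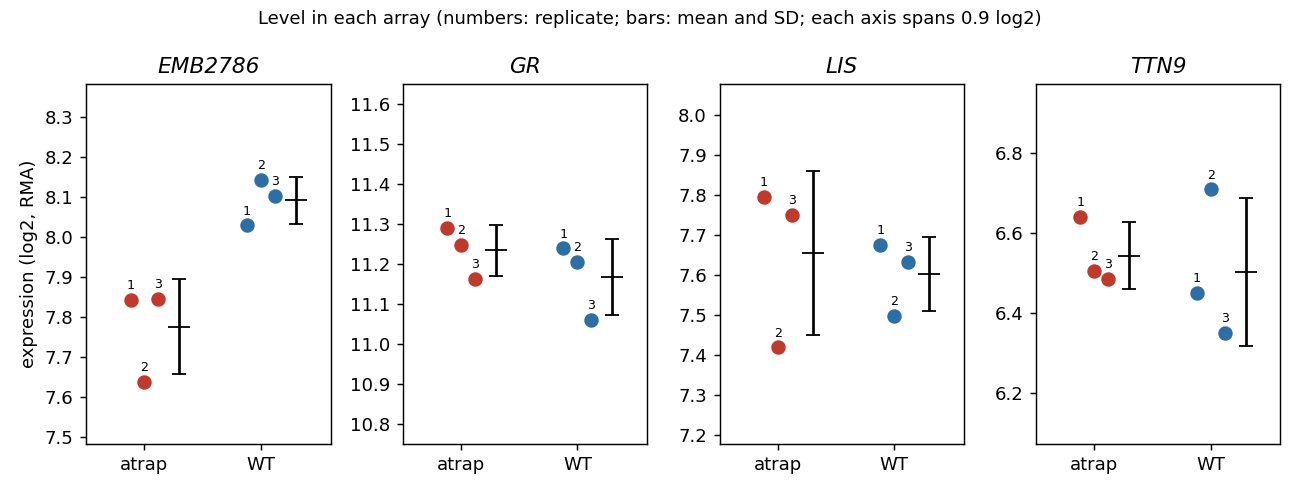
Log2 expression level of EMB2786, GR, LIS and TTN9 in each array, with atrap in red to the left of WT in blue, replicate numbers above the points, and mean and SD as black bars (n = 3 per genotype). For EMB2786 the atrap points, 7.64 to 7.85, lie below the WT points, 8.03 to 8.14, while the genotypes overlap for the other genes.

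The separation of the genotypes seen for EMB2786 was shared by many probe sets. Every mutant array lay below every WT array in 16.5% of all probe sets and above in 19.1%. Among the 3258 probe sets whose mean signal was within 0.5 log2 units of that of EMB2786, 24.1% lay lower in every mutant array, and limma called 9.76% lower and 18.8% in either direction. The size of the change was also not unusual for these arrays, since 23.3% of all probe sets had a larger absolute log2 fold change. The median log2 fold change was 0.03 over all probe sets and -0.03 over those of similar signal. EMB2786 was measured with a somewhat smaller spread than most. Its pooled standard deviation within genotypes was 0.09 on the log2 scale against a median of 0.12, and 69.6% of probe sets had a larger one.

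**Figure D2:**
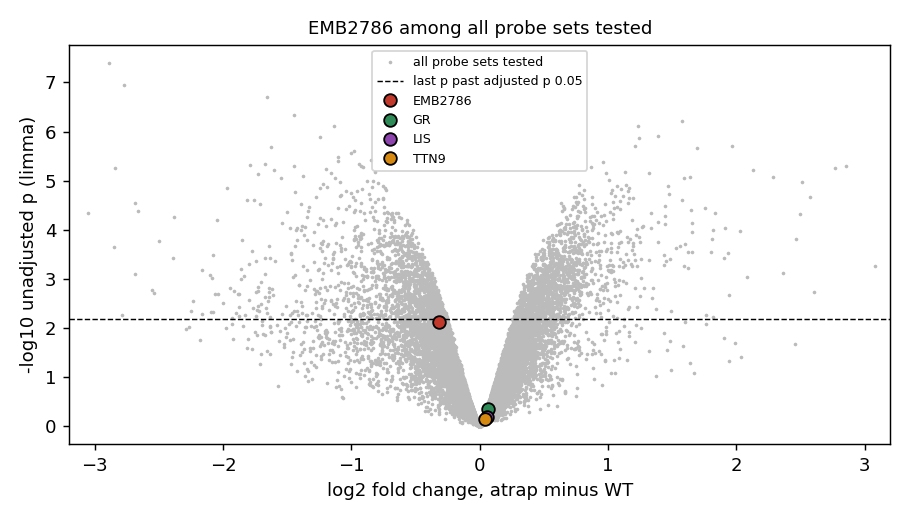
Unadjusted p (limma, as -log10) against the log2 fold change of atrap minus WT for all 22746 probe sets in grey, with EMB2786, GR, LIS and TTN9 as coloured points. The dashed line marks the largest p past the threshold, 0.00655, and EMB2786 lies just below it at 0.00773.

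Some signs of RNA handling moved with genotype in these arrays, not all in 1 direction. The manufacturer's poly-A spike-ins read 6.51 ± 0.08 in atrap and 6.90 ± 0.16 in WT (log2 mean over 24 probe sets, SD, n = 3 each). The actin 3-prime minus 5-prime difference was 2.29 ± 0.01 in atrap and 2.65 ± 0.04 in WT (log2, SD, n = 3 each). For both measures every mutant array lay below every WT array, and their differences of -0.38 and -0.35 were of the size of the EMB2786 change. They are measures of another kind than the fold change of a gene, so this likeness in size does not tell whether they are linked. The ubiquitin 3-prime minus 5-prime difference went the other way, at 0.97 ± 0.03 in atrap and 0.85 ± 0.06 in WT, with every mutant array above every WT array. That of GAPDH overlapped between genotypes, at 0.32 ± 0.05 in atrap and 0.34 ± 0.07 in WT (log2, SD, n = 3 each). The part of these measures in the EMB2786 result was not tested. The array medians, 6.50 to 6.53 in atrap and 6.53 to 6.57 in WT, differed by -0.03, and EMB2786 had a log2 fold change of -0.29 when each array was centred on its median.

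The leaf label was read from RCA, the activase of Rubisco, the 1 of 6 leaf markers that the gene table ties to a probe set. RCA lay at 14.85 to 14.94 in atrap and 14.90 to 14.93 in WT. This is near the highest value of any array, 15.01, so a difference in leaf content may not show in it. Of 14 seed and embryo markers the gene table used here names 0, so seed tissue could not be looked for. The summed signal of the 3 of 3 root markers measured (PYK10, EXPA7 and EXPA18) was 10.17 to 10.35 in atrap and 7.69 to 8.39 in WT (log2 of the sum), and this difference came from PYK10, which also marks ER bodies. PYK10 had a log2 fold change of 2.77 (limma, adjusted p = 0.00413), EXPA7 of 0.24 (adjusted p = 0.102) and EXPA18 of -0.05 (adjusted p = 0.765). For dividing cells 1 of 5 was measured, the histone gene HTB1, at 9.09 to 9.33 in atrap and 8.36 to 8.87 in WT. For trichomes 1 of 3 was measured, TRY, at 7.84 to 7.96 in atrap and 8.11 to 8.52 in WT. HTB1 had a log2 fold change of 0.63 (limma, adjusted p = 0.0345) and TRY of -0.45 (limma, adjusted p = 0.0435). Both passed the threshold, as did 13.1% of all probe sets. Of 4 genes listed for guard cells 2 were measured, SPCH and MUTE. Their summed signal was 6.85 to 7.02 in atrap and 6.80 to 7.19 in WT. MUTE lay below SPCH and below the array medians in every array, so the sum mostly reflects SPCH. SPCH itself lay above the median of its array only in replicate 1 of each genotype. Whether SPCH and MUTE follow the guard cell content of these leaves was not tested, so that content was not read from them. The part of these cell types in the EMB2786 result was not tested.

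RAP was lower in the mutant. It read 6.72, 6.35 and 6.51 in atrap, against 7.87, 7.44 and 7.76 in WT (log2 levels). Its log2 fold change was -1.16 ± 0.14 (standard error, n = 3 per group) and passed the test (limma, adjusted p = 0.00741). This is a check of the labels only if the mutation reduces RAP transcript at the probes, and its position was not known here.

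A pair of further genes carried an EMB number as a synonym in the gene table, and both stayed outside the symbol rule. GR, listed there as EMB2360, encodes a glutathione reductase that is targeted to both plastids and mitochondria and keeps glutathione reduced. GR read 11.29, 11.25 and 11.16 in atrap, against 11.24, 11.20 and 11.06 in WT (log2 levels). The genotypes overlapped, with a log2 fold change of 0.07 ± 0.08 (standard error, n = 3 per group) and a 95% interval from -0.13 to 0.26 (limma, adjusted p = 0.647). LIS, or LACHESIS, listed as EMB2776, encodes a splicing factor of the nucleus that also acts in the choice of gamete cell fate. LIS read 7.80, 7.42 and 7.75 in atrap, against 7.68, 7.50 and 7.63 in WT (log2 levels). The mutant values of LIS lay on both sides of the WT values, with replicate 2 lowest in each genotype. The log2 fold change was 0.05 ± 0.12 (standard error) with an interval from -0.22 to 0.33 (limma, adjusted p = 0.810).

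Other families named for seed or embryo sac defects were looked for by symbol. Pigment defective embryo (PDE), maternal effect embryo arrest (MEE), embryo sac development arrest (EDA), unfertilised embryo sac (UNE) and ovule abortion (OVA) genes had 0 probe sets paired with 1 gene here, and TITAN (TTN) genes had 1. TITAN mutants are known for greatly enlarged nuclei in the endosperm, the tissue that feeds the embryo. TTN9 (AT3G20070) read 6.64, 6.50 and 6.49 in atrap, against 6.45, 6.71 and 6.35 in WT (log2 levels). The mutant arrays of TTN9 lay within the range of the WT arrays, with a log2 fold change of 0.04 ± 0.11 (standard error), an interval from -0.21 to 0.30 and an adjusted p of 0.845 (limma). None of GR, LIS and TTN9 passed the test, which 13.1% of all probe sets passed in either direction. The interval of each overlapped that of EMB2786, -0.52 to -0.11, but such overlap does not test whether the changes differ.

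The change of EMB2786 was set against those of GR, LIS and TTN9 by the difference between the genes within each array. EMB2786 changed by -0.38 ± 0.11 relative to GR, -0.37 ± 0.10 relative to LIS and -0.36 ± 0.11 relative to TTN9 (log2, standard error, n = 3 per genotype). In these 3 comparisons the exact permutation p was 0.1, two-sided, and 0.1 after Benjamini-Hochberg adjustment, the smallest the design allows, so none of the differences could pass.

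**Figure D3:**
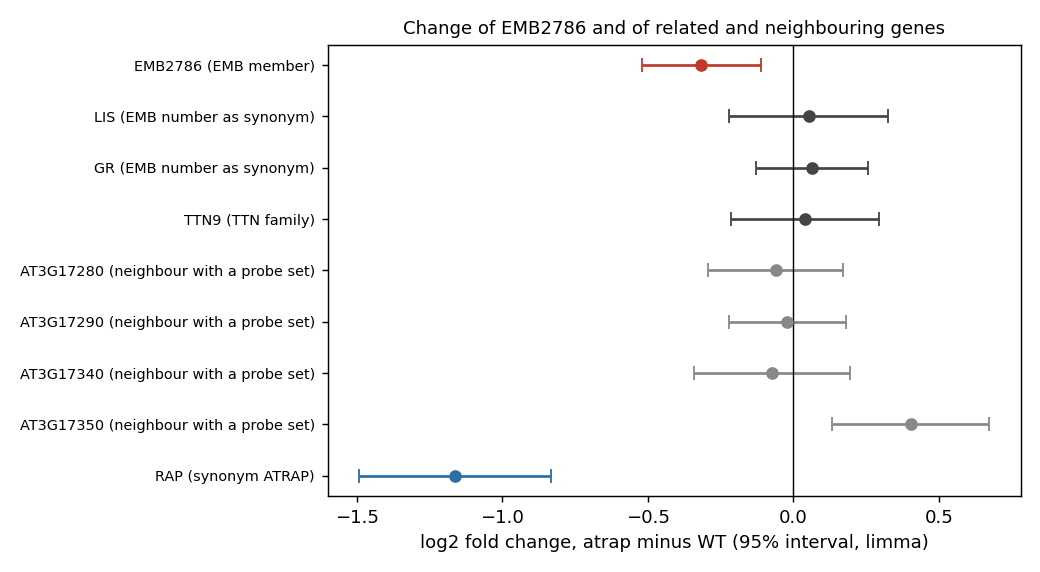
Log2 fold change of atrap minus WT with its 95% interval from limma for EMB2786, for LIS, GR and TTN9, for the nearest genes with a probe set on either side of EMB2786, and for RAP. EMB2786 lies at -0.32, and the intervals of LIS, GR, TTN9, AT3G17280, AT3G17290 and AT3G17340 span 0.

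Genes beside EMB2786 on chromosome 3 gave no common direction. In the TAIR10.1 gene table EMB2786 overlaps the edge of DRM3 (AT3G17310), a relative of DNA methyltransferases, which had 0 probe sets paired with 1 gene here. Whether the EMB2786 probes lie in the shared stretch was not known. On the other side the pseudogene AT3G17290 had a log2 fold change of -0.02 ± 0.09 and AT3G17280 of -0.06 ± 0.10 (standard error). Beyond DRM3 the nearest measured genes were AT3G17340, at -0.07 ± 0.11, and AT3G17350, at 0.40 ± 0.11. Mean levels in atrap and WT were 4.10 and 4.13 for AT3G17290 and 4.57 and 4.63 for AT3G17280 (log2). AT3G17340 had means of 5.34 and 5.41. All of these lay below the array medians of 6.50 to 6.57, at low signal where RMA compresses differences, so a change could go unseen. AT3G17350 read 7.99, 7.79 and 8.14 in atrap, against 7.66, 7.64 and 7.42 in WT (log2 levels), so that its genotypes did not overlap and it lay higher where EMB2786 lay lower. By limma 0 of these 4 neighbours passed, with the smallest adjusted p, 0.0605, for AT3G17350, and 1 of them had an unadjusted p under 0.05. Over all probe sets, 13.1% passed in either direction and 29.6% had an unadjusted p under 0.05. In 19.1% of all probe sets every mutant array lay above every WT array, as for AT3G17350.

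The 3 genes whose levels followed those of EMB2786 most closely over the 6 arrays were AT3G14430, RTH and AT2G45540. Likeness was measured as the root mean square difference between the log2 values of both genes after each was centred on its own mean. It was 0.025 for AT3G14430, 0.027 for RTH and 0.028 for AT2G45540, against a median of 0.229 over the genes measured. AT3G14430 read 8.75, 8.56 and 8.73 in atrap, against 8.93, 9.09 and 8.98 in WT (log2 levels). As for EMB2786, its lowest mutant array was replicate 2 and its highest WT array replicate 2. RTH, named as a homolog of an ethylene receptor regulator, read 8.93, 8.75 and 8.98 in atrap, against 9.11, 9.20 and 9.17 in WT. AT2G45540 read 7.88, 7.61 and 7.85 in atrap, against 8.04, 8.14 and 8.05 in WT. Their log2 fold changes were -0.32, -0.27 and -0.30, and none of the 3 passed (limma, adjusted p = 0.0535, 0.0810 and 0.0808). These genes were selected for a small difference from EMB2786, so their values describe that selection and are no support for its change.

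Since every mutant array lay below every WT array for EMB2786, leaving out any 1 array could not reverse the direction of its change. These fits therefore show only how its size and adjusted p varied. The log2 fold change ran from -0.35 without atrap replicate 3 to -0.25 without atrap replicate 2, the mutant array with the lowest reading. The adjusted p ran from 0.0580 without WT replicate 1 to 0.165 without WT replicate 2 (limma), and with 5 arrays it did not pass in any of the 6 fits. The share of all probe sets called differed widely between these fits, from 1.54% without atrap replicate 1 and 1.93% without WT replicate 2 to 17.0% without WT replicate 1.

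**Figure D4:**
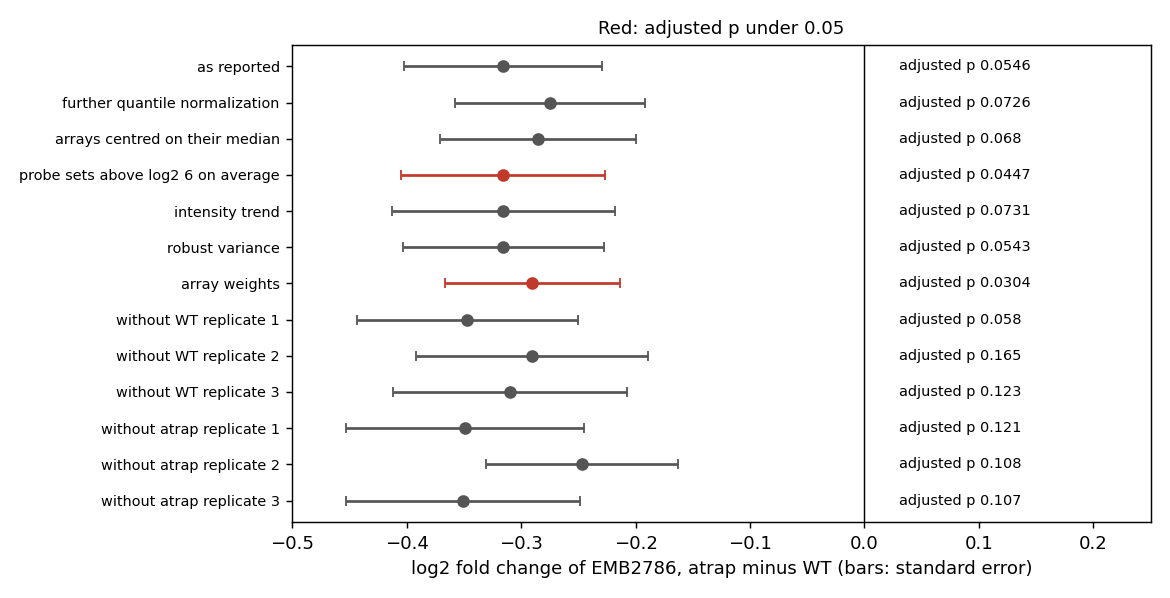
Log2 fold change of EMB2786, atrap minus WT, with its standard error, as reported and under other ways of processing, and the adjusted p from limma at the right. All points lie between -0.35 and -0.25, and the red points, the filter at log2 6 and array weights, are those with an adjusted p under 0.05.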

How the data were processed

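The authors deposited 1 log2 value per probe set and array, computed with RMA as the submitters' processing notes name it, in a version not given in the sources used here. Values of 3.12 to 15.01 show the log2 scale. Since RMA equalises array distributions, it would hide a shift common to all transcripts, and it compresses differences at low signal. The number of arrays limits the precision.

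Groups came from the sample titles. Of 22746 probe sets, the platform's gene table gave 13513 a single gene and 503 several genes, and did not list 8730. Symbols were updated by gene identifier through the RefSeq table of TAIR10.1, which matched 13436. Differences between genotypes were fitted in R 4.3.3 using limma 3.58.1 (lmFit, eBayes, two-sided, Benjamini-Hochberg over all probe sets), with no filter and no further normalization. Permutation tests and summaries used Python 3.11.15 with numpy 2.4.6, pandas 2.3.3 and scipy 1.17.1, and figures matplotlib 3.10.9. The limma fit alone was tested on 20 simulated data sets, each with 200 changed probe sets, fewer than the 2981 called here. It recovered 32.7% of changes of 0.5 log2 units, 79.8% of 1 and 97% of 2. Of its calls 4.55% were false. The simulated noise was independent between probe sets and arrays, without effects shared across an array, so these shares need not hold for the real arrays. Changes as small as that of EMB2786 were not simulated.

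The members and lists were chosen with earlier results of these data known. Named were EMB2786, RAP and members of the related lists. The synonym genes, the neighbours and the 3 genes most alike were added once it was known that 1 member was measured. Alternatives were a replicate block, quantile normalization, median centring, array weights, robust variance, an intensity trend, a filter at log2 6, a threshold of 0.01, the brightest probe set per gene and leaving out each array. No sequence is shown, since no sequence table was used here.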

Additional observations from a re-analysis of the deposited data

How the results depend on the processing

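The log2 fold change of EMB2786 was negative under all 15 alternatives, from -0.35 to -0.25. Most of them could not change its sign. The replicate block, filter, intensity trend, robust variance, threshold of 0.01 and brightest probe set rule leave the estimate at -0.32. Leaving out 1 array could not reverse it, since the genotypes did not overlap. The side of the threshold was kept under 13 alternatives, among them the threshold of 0.01, which could not add a call. EMB2786 passed with the filter at log2 6 (-0.32, adjusted p = 0.0447 by limma) and with array weights (-0.29, adjusted p = 0.0304). There the EMB probe sets called lower, and those called in the compartment group not assigned, numbered 1 in place of 0. With the filter 12781 probe sets were tested and 23.3% called, so the adjustment was over fewer and more often changed probe sets. With array weights 5325 probe sets were called, 23.4% against 13.1% as reported, and the cause was not tested. EMB probe sets called higher numbered 0 throughout by limma. Leaving out 1 array gave -0.35 to -0.25 with 0 calls, while 350 to 3863 of all probe sets (1.54% to 17.0%) were called, and the unadjusted p of EMB2786 was under 0.05 each time. The replicate block gave -0.32 for EMB2786 (limma, adjusted p = 0.107). Between arrays of the same number, deviations from the genotype means had correlations of 0.13, 0.02 and -0.15, so the numbers gave no clear sign of pairing, and the block moved the calls over all probe sets to 2101 from 2981. RAP passed under all 15 alternatives (adjusted p 0.00297 to 0.0393), and GR, LIS and TTN9 passed under none by limma. LIS changed sign in 1 alternative and TTN9 in 2, to at most -0.02 and -0.04. The brightest probe set rule left the member as it was, since it has 1 probe set.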
